A study of Mus musculus with 8 samples.

Results

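Regulatory T cells (Treg) were compared with CD44lo CD4 T cells on single-colour Agilent mouse arrays, with 2 arrays a group. These 4 arrays were chosen by their titles from the 8 of the study, which also hold 2 of CD44hi cells and 2 of naive cells. All 8 samples were sorted CD4+ T cells. The donors were male C57BL/6 mice aged 15 weeks, and their spleen and lymph node cells had been pooled. The series title gives the mice as Ox40-cre/ROSA-YFP, animals in which cells that have used the Ox40 (Tnfrsf4) promoter are marked with a yellow fluorescent protein. The labels give neither the surface markers behind the group names nor the YFP status of a group. CD44lo stands for low surface CD44, a hyaluronan receptor that T cells carry at higher levels after meeting antigen. The labels number the samples of each group 1 and 2 without saying whether these were separate animals, so p-values measure only how far these samples scatter, and that scatter may be technical.

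Regulatory T cells restrain other lymphocytes. Their identity rests on the transcription factor Foxp3, and they carry the high-affinity receptor for IL-2, a growth factor that they take up but hardly make. Foxp3 turns some genes on and others off, and among those it shuts off are the cyclic nucleotide phosphodiesterase Pde3b and the genes of several helper cytokines.

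The array files hold a background-subtracted spot signal. It is given here as a scaled signal, a multiple of the 75th percentile of the array over non-control probes, and differences are log2 values of Treg minus CD44lo with the standard error of the fit. Scaled signals of different probes are not compared with each other, since each probe has its own response. The 75th percentile was 1165 and 1337 on the Treg arrays and 1045 and 1065 on the CD44lo arrays, and the number of arrays limits the precision. Across genes, the log2 difference between the 2 arrays of a group had an SD of 0.40 in Treg and 0.36 in CD44lo. It was 0.48 in CD44hi and 0.63 in naive. The fit pools the spread of all 4 groups, so each standard error also carries the scatter of CD44hi and naive. Each slide carried 1 Treg and 1 CD44lo array, slide 1 Treg 1 with CD44lo 2 and slide 2 Treg 2 with CD44lo 1.

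Probes of several large differences and of genes chosen by name are shown by the first 30 of their 60 bases, 5′ to 3′. These oligos are what was read on the array. Their positions are those of the file on build mm7. The probe for Foxp3 lies at chrX:6028182-6028241 and that for Il2ra at chr2:11631963-11632024. The probe for Gpr83 lies at chr9:14704868-14704927 and that for Cyp26b1 at chr6:84601274-84601333 on the minus strand. These 4 rose in Treg, and the other 3 shown for a gene fell. They lie at chr10:75270562-75270621 for Ggt5, at chr11:54011782-54011841 on the minus strand for Pdlim4 and at chr7:110452250-110452309 for Pde3b. The last sequence belongs to a probe at chr1:47021888-47021947 that was named Dnah12 through RefSeq and that is described by its position below.
Foxp3: cagttcctttgtgtccgacaagatctggta
Il2ra: ctagtttccttcttcccattagtaataata
Gpr83: aagtcattggaacaggaataatcacacagc
Cyp26b1: gttcgtgtgtctcgttgtggtagcattaat
Ggt5: cccactacgaatgctgtgactcacatgggt
Pdlim4: gatatgatgtggtggctgtataccccaatg
Pde3b: aacaaactgcaggtggataatgcctcctta
chromosome 1 probe: ctttcctgactggtgcgtagcagaactatg

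Treg and CD44lo differed in 1001 of 17996 genes tested, with 665 higher and 336 lower in Treg. The calls are 5.56% of the genes tested, 3.7% higher and 1.87% lower. A call means a limma adjusted p (Benjamini-Hochberg over all genes tested, fitted over all 8 arrays) under 0.05, with no fold minimum. Of the called genes, 595 were higher and 251 lower by at least 2-fold, and 305 were higher and 96 lower by at least 4-fold. In all 1001 the arrays of the groups did not overlap, so the same sign on both slides followed from that. Over all genes tested the median difference was -0.07. An exact permutation test of 2 arrays against 2 has a smallest possible p of 0.333, so each call leans on the variance estimate that limma pools over genes. The arrays of the groups did not overlap in 64.2% of all genes tested. Without CD44lo 1 the count fell to 188 genes, without Treg 2 to 232, without Treg 1 to 390 and without CD44lo 2 to 457. Of 102 named genes called, 34 were called in every setting that tested them, among them Il2ra, Gpr83, Socs2, Cish, Cyp26b1, Gata1, Ggt5, Pdlim4, Lrrc75b, Klrd1, Cd40lg and Pde3b.

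**Figure D1:**
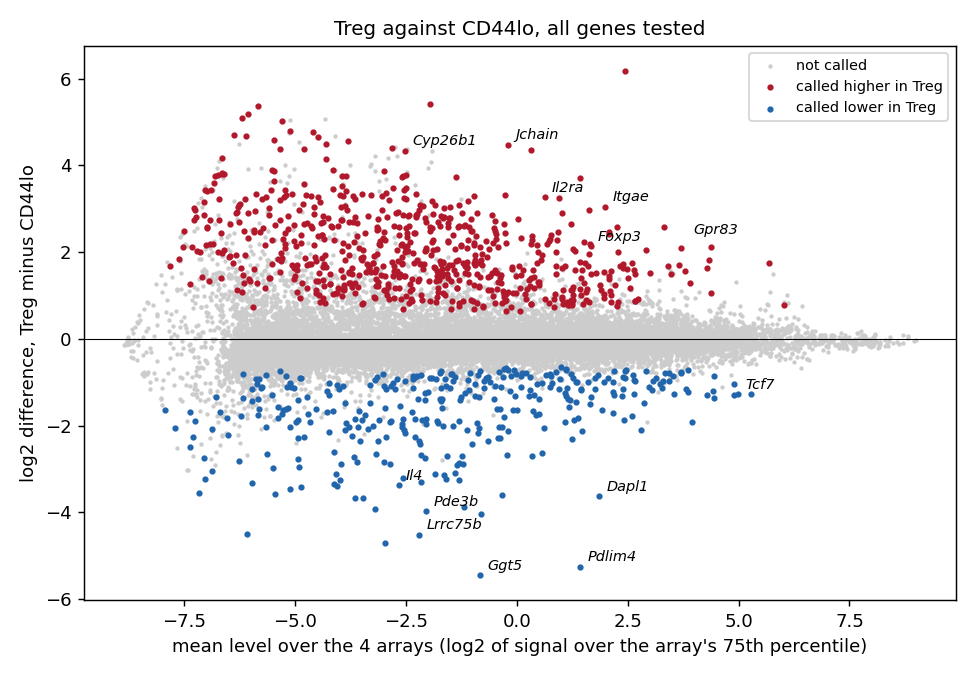
Each point is 1 gene, with its mean level over the 4 arrays (log2 of the signal over the 75th percentile) across the page and its log2 difference, Treg minus CD44lo, up the page. Red points were called higher in Treg (665), blue points lower (336) and grey points were not called. Ggt5 and Pdlim4 lie lowest among the named genes, at -5.45 and -5.25, while Jchain and Cyp26b1 lie near the top of the named genes at 4.47 and 4.33.

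Foxp3 separated the groups and fitted the label of the Treg arrays. Its scaled signal was 6.84 and 6.39 in Treg 1 and 2, against 1.27 and 1.79 in CD44lo 1 and 2. Both Treg arrays lay above both CD44lo arrays, yet Foxp3 was also well above background on both CD44lo arrays. It was higher in Treg by log2 2.13 ± 0.28 (4.39-fold, limma adjusted p = 0.0102). Its adjusted p by limma was 0.0633 without Treg 1, 0.0693 without Treg 2 and 0.0757 without CD44lo 1, with differences of 2.08, 2.18 and 1.89. CD44hi had 0.844 and 0.936 and naive 0.0235 and 0.0389. In a bulk sample, a lower signal from fewer cells of a type and from less RNA per cell cannot be told apart.

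Of 17 transcription factors known in regulatory T cells, 5 were higher in Treg and none lower, beside 3.7% of all genes called higher. The median difference over the list was 0.60. Gata1, a zinc finger factor best known from red cell and mast cell development, had 1.37 and 1.61 in Treg, against 0.320 and 0.319 in CD44lo (log2 2.22 ± 0.21, limma adjusted p = 0.00395). It was lower still in CD44hi, at 0.0538 and 0.0800, while naive cells had 0.287 and 0.272. Plagl1, a zinc finger gene, rose by log2 2.21 ± 0.38. Ikzf4 (Eos), an Ikaros-family partner of Foxp3, had 0.484 and 0.513 in Treg, against 0.203 and 0.220 in CD44lo (log2 1.24 ± 0.14, limma adjusted p = 0.00617). Its values lay close together within each group. Irf4, a factor of effector Treg and other activated lymphocytes, rose by log2 1.03 ± 0.16.

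Helios (Ikzf2), a further Ikaros-family factor of Treg, did not pass the test. It had 14.9 and 14.7 in Treg, against 4.57 and 7.30 in CD44lo (log2 1.36 ± 0.40, limma adjusted p = 0.124). The groups did not overlap, and the CD44lo arrays differed more from each other than the Treg arrays did. Prdm1, which encodes Blimp-1, differed by log2 0.63 ± 0.15 (limma adjusted p = 0.0698), and Gata3 and Batf by 0.52 and 0.38. Runx1 and Cbfb, which form a complex with each other, differed by -0.14 and -0.17. Without CD44lo 1, or without Treg 2, 1 factor of the list was called.

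**Figure D2:**
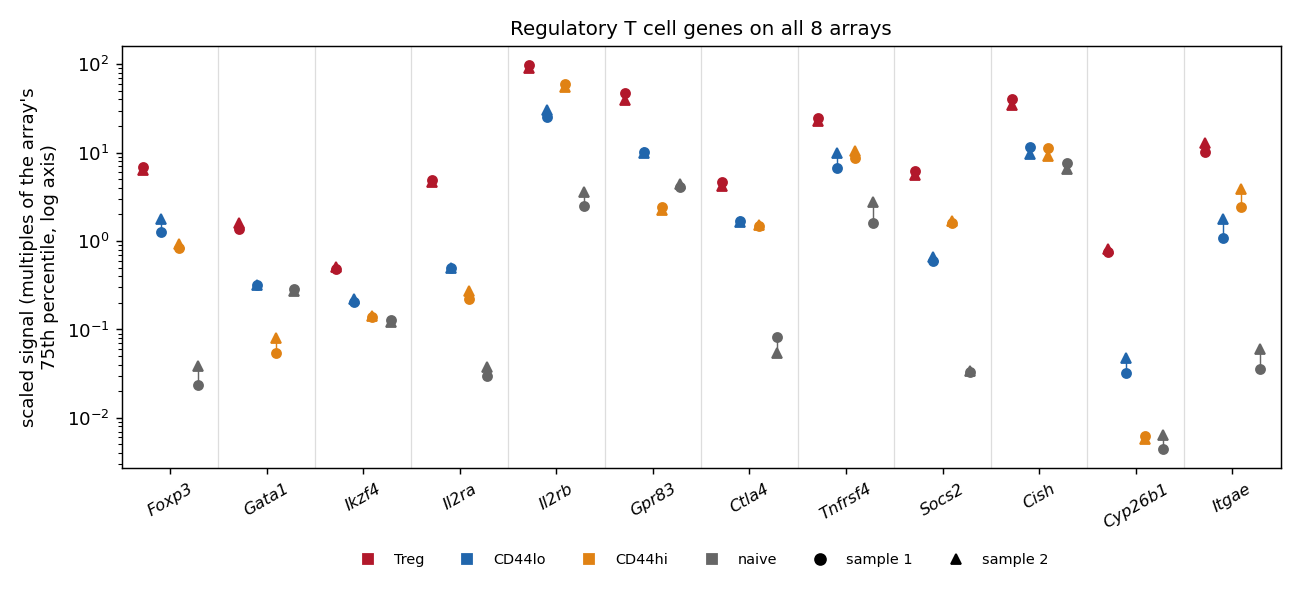
Scaled signal (multiples of the 75th percentile of the array, log axis) of 12 genes of regulatory T cells on all 8 arrays, with Treg in red, CD44lo in blue, CD44hi in orange and naive in grey, circles for sample 1 and triangles for sample 2. In each of the 12 genes, picked among those called, both Treg arrays lie above both CD44lo arrays (64.2% of all genes tested do not overlap), and Foxp3 is at 6.84 and 6.39 in Treg, against 1.27 and 1.79 in CD44lo.

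Of the 21 tested surface receptors of regulatory T cells, 12 were called higher in Treg and none lower, beside 3.7% of all genes called higher. All 21 differences were above 0, and their median was 1.52, with 1.17 on slide 1 and 1.82 on slide 2. Against CD44hi, 9 of the 21 were called higher in Treg and none lower, beside 8.19% of all genes called there either way. Il2ra, the alpha chain (CD25) that gives the IL-2 receptor its high affinity, had 4.94 and 4.61 in Treg, against 0.493 and 0.5 in CD44lo. That is a 9.61-fold rise (log2 3.26 ± 0.18, limma adjusted p = 0.000896), and CD44hi was below CD44lo for this gene, at 0.220 and 0.270. Il2rb, the signalling beta chain, had 97.9 and 90.2 in Treg, against 25.5 and 30.8 in CD44lo (log2 1.75 ± 0.22, limma adjusted p = 0.00891). The gamma chain gene Il2rg differed by log2 -0.01 ± 0.32.

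Gpr83, an orphan-type G protein-coupled receptor known from Treg, had 47.6 and 39.4 in Treg, against 10.2 and 9.80 in CD44lo (log2 2.12 ± 0.16, limma adjusted p = 0.00176). CD44hi had 2.45 and 2.24 and naive 4.13 and 4.44, so CD44lo was the next highest group. Itgae (CD103), an integrin chain that binds E-cadherin on epithelium, had 10.2 and 12.9 in Treg, against 1.09 and 1.77 in CD44lo (log2 3.05 ± 0.37). Klrg1, an inhibitory lectin-like receptor of late effector cells, rose by log2 2.91 ± 0.41, and Il1rl1, the receptor for the alarmin IL-33, by 2.77 ± 0.22. Klrg1 and Il1rl1 were not called between Treg and CD44hi, which had 1.95 and 1.90 for Klrg1 and 1.48 and 1.92 for Il1rl1.

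Within the TNF receptor family 3 members of the list were called and 2 were not. Tnfrsf4, which encodes Ox40 itself, had 24.8 and 23.0 in Treg, against 6.63 and 9.92 in CD44lo (log2 1.56 ± 0.30, limma adjusted p = 0.0350). Tnfrsf9 (4-1BB) rose by log2 1.67 ± 0.27 and the type 2 TNF receptor Tnfrsf1b by 1.11 ± 0.21. Tnfrsf18 (GITR) just missed the threshold, with 98.3 and 93.9 in Treg, against 45.0 and 51.3 in CD44lo (log2 1.00 ± 0.23, limma adjusted p = 0.0567). Tnfrsf8 (CD30) differed by log2 1.18 ± 0.46. Ctla4, which competes with Cd28 for its ligands, had 4.64 and 4.15 in Treg, against 1.69 and 1.65 in CD44lo (log2 1.39 ± 0.22, limma adjusted p = 0.0171).

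Ccr8, a chemokine receptor of skin-homing and regulatory cells, rose by log2 1.55 ± 0.32, and Izumo1r, folate receptor 4, by 0.92 ± 0.17. Nrp1 (neuropilin-1), with 1.78 and 2.00 in Treg, against 0.645 and 0.859 in CD44lo, was not called (log2 1.34 ± 0.31, limma adjusted p = 0.0597). Neither were Icos at 0.51 ± 0.31 and Lag3 at 0.08 ± 0.29. The number of receptors called was 3 without CD44lo 1 or Treg 2, 4 without Treg 1, 7 without CD44lo 2 and 6 with no filter on dim probes. The calls of Tnfrsf4 and Ctla4 were lost without any 1 of the 4 arrays.

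Feedback inhibitors of IL-2 signalling were among the genes higher in Treg. Of 14 tested genes of IL-2 signalling and SOCS feedback, 4 were higher and none lower (median 0.22), beside 3.7% of all genes called higher, and 2 were called without CD44lo 1 or without Treg 2. Socs2, an inhibitor of cytokine signalling, had 6.26 and 5.64 in Treg, against 0.593 and 0.659 in CD44lo (9.51-fold, log2 3.25 ± 0.14, limma adjusted p = 0.000598). The difference was 3.25 on each slide. Cish, a STAT5-induced inhibitor of the same family, had 40.9 and 34.5 in Treg, against 11.7 and 9.74 in CD44lo (log2 1.82 ± 0.19). Socs1 rose by log2 1.06 ± 0.20 and the survival gene Bcl2l1 (Bcl-xL), a STAT5 target, by 1.43 ± 0.15. Socs3 differed by 0.27 ± 0.20. The kinases and transcription factors of the pathway were not called, with Jak1 at -0.38 ± 0.17, Jak3 at 0.17 ± 0.18, Stat5a at 0.41 ± 0.36 and Stat5b at 0.14 ± 0.15. The 2 other probes of Stat5b were detected and went the other way. Il2 itself, the cytokine gene, had 0.0197 and 0.0244 in Treg, against 0.0346 and 0.0393 in CD44lo (log2 -0.75 ± 0.29, limma adjusted p = 0.237), while CD44hi had 0.320 and 0.268.

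Of 15 tested genes with suppressive functions, 7 were higher in Treg and 1 lower (median 1.01), beside 3.7% and 1.87% of all genes. Against CD44hi, 3 of the 15 were called higher in Treg and none lower, beside 8.19% of all genes called there either way. Cyp26b1, an enzyme that breaks down retinoic acid, had 0.762 and 0.811 in Treg, against 0.0323 and 0.0470 in CD44lo. It rose 20.2-fold (log2 4.33 ± 0.25, limma adjusted p = 0.000943). The CD44hi arrays, at 0.00628 and 0.00576, and the naive arrays, at 0.00442 and 0.00643, were below the CD44lo arrays. Penk, the precursor of the enkephalin peptides, had 21.5 and 27.5 in Treg, against 3.18 and 5.22 in CD44lo (log2 2.58 ± 0.50, limma adjusted p = 0.0333). Gzmb, the protease granzyme B, rose by log2 2.48 ± 0.26 and Ebi3, a subunit of IL-35 and IL-27, by 2.20 ± 0.43. Penk, Gzmb and Ebi3 were not called between Treg and CD44hi. CD44hi had 7.77 and 11.9 for Penk, 0.827 and 0.772 for Gzmb and 3.71 and 4.22 for Ebi3. Il12a, the partner chain of Ebi3 in IL-35, was well above background on only 1 array of each group and differed by -0.15 ± 0.47.

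Entpd1 (CD39), which breaks down extracellular ATP, had 0.926 and 1.01 in Treg, against 0.234 and 0.324 in CD44lo (log2 1.81 ± 0.24, limma adjusted p = 0.0102). Nt5e (CD73), which acts next in that pathway, differed by log2 0.75 ± 0.21 (limma adjusted p = 0.118). Fgl2, a secreted fibrinogen-like protein, rose by log2 1.46 ± 0.17 and Tgfbr1, a receptor chain for TGF-beta, by 1.01 ± 0.19. The cytokine genes Il10 and Tgfb1 were not called. Il10 had 0.446 and 0.370 in Treg, against 0.223 and 0.479 in CD44lo, so that the groups overlapped (log2 0.31 ± 0.37, limma adjusted p = 0.733). Without CD44lo 1 its difference was -0.24. Tgfb1 differed by 0.23 ± 0.17. The number of effectors called higher was 2 without CD44lo 1, without Treg 1 or without Treg 2. Perforin (Prf1), the pore-forming partner of granzymes, went the other way from Gzmb, with 0.552 and 0.510 in Treg, against 1.75 and 1.55 in CD44lo (log2 -1.63 ± 0.33, limma adjusted p = 0.0405).

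The largest rise among genes with a current symbol that were measured on all 4 arrays belonged to a probe named through RefSeq. The name it was given is Dnah12, a dynein heavy chain gene. This probe had 1.62 and 1.73 in Treg, against 0.0356 and 0.0437 in CD44lo (42.4-fold, log2 5.41 ± 0.21, limma adjusted p = 0.000390). A second probe of that name rose by log2 5.27. Both lie on chromosome 1 of mm7, between 47021888 and 47021993, whereas the reference places Dnah12 on chromosome 14. The 3 probes of that name on chromosome 14 differed by -0.02, -0.90 and -0.09, and none was well above background on a Treg array. The transcript that rose is therefore given here by its position on chromosome 1 and not as Dnah12.

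Other large rises were Pla2g4f, a cytosolic phospholipase A2 family member, at log2 3.87 ± 0.23, and Gbp2b, an interferon-inducible GTPase, at 3.74 ± 0.22. Gbp2b had 1.43 and 1.41 in Treg, against 0.0886 and 0.127 in CD44lo. Havcr2 (TIM-3), an inhibitory receptor of T cells, rose by log2 3.73 ± 0.33 and Anxa1, a phospholipid-binding annexin, by 3.76 ± 0.30. The atypical E2F factor E2f7 rose by 3.53 ± 0.38 and Igfbp7, a secreted binding protein, by 3.48 ± 0.35. For Anxa1 the CD44hi arrays, at 2.02 and 2.73, lay above the Treg arrays, at 0.478 and 0.807. E2f7 had 0.164 and 0.294 in Treg, against 0.283 and 0.412 in CD44hi, and Igfbp7 0.502 and 0.702, against 0.615 and 0.959. Neither was called between Treg and CD44hi, nor was Havcr2, while Pla2g4f and Gbp2b were called higher in Treg than in CD44hi. The remaining 5 of the 12 largest rises were Jchain, Iglv1, Igkv14-111 and Igkv2-116, which are immunoglobulin genes and their joining chain, and Cyp26b1.

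A further 97 genes called higher were not well above background on either CD44lo array, so only a bound can be given. They entered the test only through another group where they were well above background, so the filter favoured this direction. Their number and direction are therefore not a result in themselves. Each bound sets the mean log2 signal of the brighter group against the lowest detected signal on each array of the dimmer one, or the dim probe's own signal where that was higher. Ccl1, a chemokine that binds Ccr8, was at least 13.5-fold higher in Treg (limma adjusted p = 0.00382), with 0.154 and 0.148 in Treg, against measured signals of 0.00347 and 0.00864 in CD44lo. Ptger3, a prostaglandin E2 receptor, was at least 7.45-fold higher, and 1 of its other probes, not detected in these groups, went the other way. CD44hi and naive were also low for Ptger3, between 0.00335 and 0.00602, so it passed the filter through Treg alone. Pxdc1 was at least 13-fold higher and Agr3, a protein disulphide isomerase family member, at least 7.7-fold higher. CD44hi lay above Treg for both, at 0.450 and 1.07 for Pxdc1 and at 0.106 and 0.112 for Agr3. The light chain segments Igkv1-133 and Igkv1-132 were at least 20-fold and at least 10-fold higher. Neither was called between Treg and CD44hi, where they had 0.375 and 0.236 and 0.166 and 0.134 in CD44hi.

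Among genes with a current symbol that were measured on all 4 arrays, the largest falls in Treg were those of Ggt5 and Pdlim4, which were highest in naive cells. Ggt5, a gamma-glutamyl transferase family member, had 0.0944 and 0.0765 in Treg, against 4.06 and 3.38 in CD44lo (43.6-fold, log2 -5.45 ± 0.18, limma adjusted p = 0.000229). Pdlim4, a PDZ and LIM domain protein, had 0.530 and 0.356 in Treg, against 18 and 15.2 in CD44lo (38.1-fold, log2 -5.25 ± 0.25). For both genes CD44hi lay between Treg and CD44lo, and naive lay above CD44lo, at 5.78 and 6.70 for Ggt5 and at 44.2 and 56.4 for Pdlim4. Lrrc75b, a leucine-rich repeat gene, was low in Treg alone of the 4 groups, with 0.0445 and 0.0464 in Treg, against 1.1 and 0.974 in CD44lo (log2 -4.51 ± 0.15, limma adjusted p = 0.000229). CD44hi had 1.11 and 1.14 for it and naive 2.08 and 2.32, and Treg was below CD44hi by log2 -4.63 ± 0.15 (limma adjusted p = 0.000213).

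A530021J07Rik, an uncharacterized transcript, fell by 4.70 on the log2 scale and Lypd6b by 3.61. App, the amyloid precursor protein gene, had 0.0228 and 0.0217 in Treg, against 0.331 and 0.243 in CD44lo (log2 -3.67 ± 0.28, limma adjusted p = 0.00176). CD44hi was close to CD44lo for App, at 0.275 and 0.307. Atp8b4, a phospholipid-flipping ATPase, fell by 3.35 on the log2 scale. Below background on both Treg arrays, and given as bounds, were S1pr5, a sphingosine-1-phosphate receptor, at least 7.87-fold lower, and Vwce at least 9.62-fold lower. The potassium channel gene Kcnc1 was at least 6.24-fold lower. The protein kinase gene Alpk2, the protease gene Adamts3 and the RNA-binding protein gene Cpeb1 had bounds of at least 2.98-fold, 2.49-fold and 2.35-fold lower. The call was lost in 7 of 10 other settings for Adamts3, which also had 1 undetected probe going the other way, in 3 for Cpeb1 and Kcnc1 and in 2 for Alpk2. In all, 23 of the genes called lower were of this kind, and they too entered the test only through another group.

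**Figure D3:**
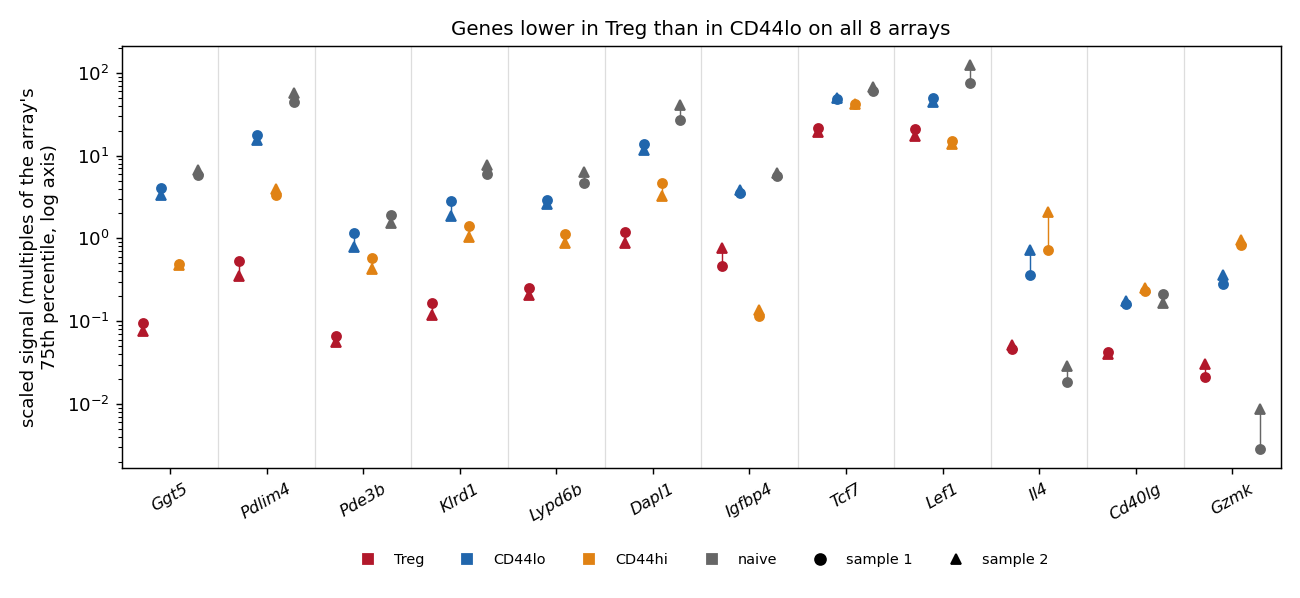
Scaled signal (multiples of the 75th percentile of the array, log axis) of 12 genes called lower in Treg on all 8 arrays, with Treg in red, CD44lo in blue, CD44hi in orange and naive in grey, circles for sample 1 and triangles for sample 2. Both Treg arrays lie below both CD44lo arrays in each gene (64.2% of all genes tested do not overlap), and Pde3b is at 0.0663 and 0.0569 in Treg, against 1.18 and 0.785 in CD44lo.

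Genes that Foxp3 or the Treg state is known to hold down were lower in part. Of 16 tested, 4 were lower, 1 was higher and 11 were not called (median -0.55), beside 1.87% of all genes called lower. Pde3b had 0.0663 and 0.0569 in Treg, against 1.18 and 0.785 in CD44lo (15.7-fold, log2 -3.97 ± 0.26, limma adjusted p = 0.00136). It was 0.574 and 0.422 in CD44hi and 1.92 and 1.53 in naive, so Treg was the lowest of the 4 groups. Cd40lg, the CD40 ligand through which helper cells activate B cells, had 0.0424 and 0.0399 in Treg, against 0.162 and 0.175 in CD44lo (log2 -2.03 ± 0.17, limma adjusted p = 0.00238).

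Il4, the defining cytokine of type 2 helper cells, had 0.0458 and 0.0518 in Treg, against 0.359 and 0.715 in CD44lo (log2 -3.38 ± 0.55, limma adjusted p = 0.0191). CD44hi cells had 0.719 and 2.08 and naive cells 0.0183 and 0.0287, so Treg lay near naive for this gene. Dntt, the template-independent DNA polymerase of early lymphocytes, fell by 1.34 on the log2 scale. Il21 was not called at log2 -1.97 ± 0.60 (limma adjusted p = 0.137), and neither was Ifng at 0.17 ± 0.46, whose signals were 2.72 and 3.28 in Treg, against 1.86 and 3.79 in CD44lo. The member that rose was Csf2, the cytokine GM-CSF, at least 1.75-fold higher (limma adjusted p = 0.0389). It was low in every group, between 0.00400 and 0.0423, and its call was lost in 5 of 10 other settings that tested it.

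Among naive T cell and quiescence genes, 6 of 22 were lower and none higher in Treg (median -0.69), beside 1.87% of all genes called lower. Differences were below 0 for 19 of the 22, as for 10616 of the 17996 genes tested. Dapl1 had 1.20 and 0.870 in Treg, against 13.6 and 11.8 in CD44lo (log2 -3.63 ± 0.29). Igfbp4, which binds insulin-like growth factors, had 0.467 and 0.759 in Treg, against 3.52 and 3.85 in CD44lo (log2 -2.63 ± 0.25). CD44hi was lower than Treg for Igfbp4, at 0.115 and 0.136, but higher than Treg for Dapl1, at 4.67 and 3.26. The transcription factors Tcf7 and Lef1, which act together in naive T cells, fell by 1.28 and 1.30 on the log2 scale.

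Tcf7 had 21.7 and 19.1 in Treg, against 48.9 and 50.1 in CD44lo (limma adjusted p = 0.00733), and CD44hi, at 41.8 and 42.0, was near CD44lo. The chromatin organizer Satb1 fell by 1.20 and the actin cross-linker Actn1 by 1.19 on the log2 scale. The homing receptor Ccr7 and the survival receptor Il7r were not called. Ccr7 differed by log2 -0.78 ± 0.21 (limma adjusted p = 0.0984). Il7r, the IL-7 receptor, had 13.8 and 10.1 in Treg, against 22.0 and 19.7 in CD44lo (log2 -0.82 ± 0.23, limma adjusted p = 0.107). The number called lower was 3 without Treg 1 and 2 without Treg 2, CD44lo 1 or CD44lo 2.

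The genes of CD44 and CD4, the surface proteins behind the labels, were not called between Treg and CD44lo. Cd44 had 11.5 and 10.4 in Treg, against 7.08 and 8.32 in CD44lo (log2 0.51 ± 0.19, limma adjusted p = 0.208). Of its 3 probes another differed by 0.55. The last, dim and well above background on only 1 Treg array, went the other way at -0.48. By the tested probe CD44hi had 22.6 and 21.0 and exceeded CD44lo by log2 1.5 ± 0.19 (limma adjusted p = 0.00535). Cd4 had 1.14 and 1.05 in Treg, against 1.70 and 1.72 in CD44lo (log2 -0.64 ± 0.50, limma adjusted p = 0.586). Its naive arrays, at 2.22 and 0.751, also entered that standard error, and its other probe differed by -0.77. Cd69, an early activation receptor, had 6.00 and 3.48 in Treg, against 7.49 and 4.25 in CD44lo, with overlapping groups (log2 -0.30 ± 0.35). Its sign turned without CD44lo 1 (0.11) and without Treg 2 (0.09), and it was called in neither.

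**Figure D4:**
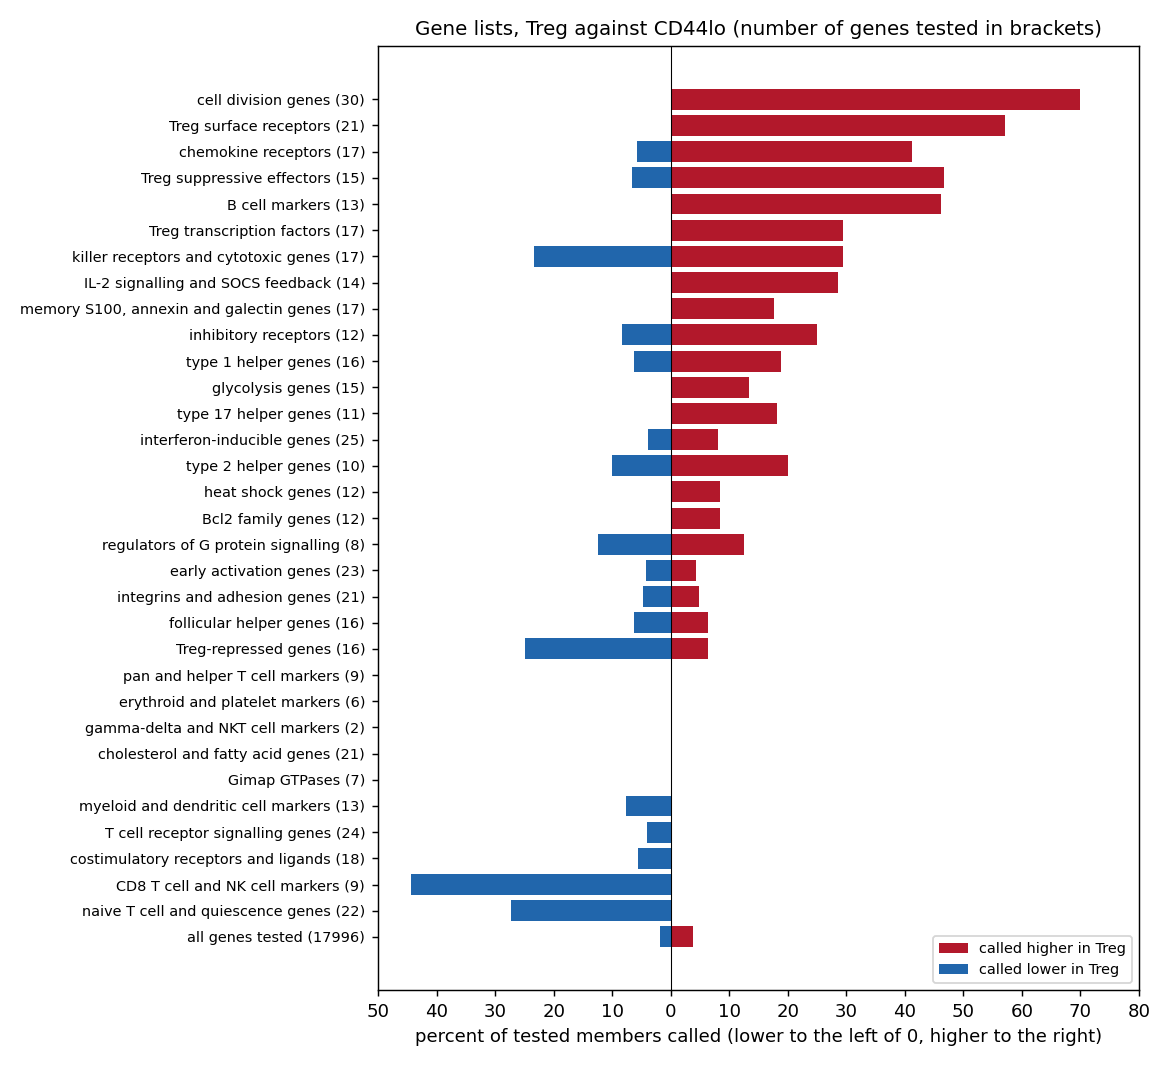
Percent of the tested members of each of 32 gene lists that were called higher in Treg (red, to the right of 0) or lower (blue, to the left), with the number of genes tested in brackets. Cell division genes (70.0%) and Treg surface receptors (57.1%) have the highest shares called higher and CD8 T cell and NK cell markers (44.4%) the highest share called lower, beside 3.7% and 1.87% of all genes tested at the bottom.

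Genes of the helper subsets were called in both directions. Of 16 type 1 helper genes, 3 were higher (Havcr2, Hopx and Il12rb1) and 1 lower (Eomes), beside 3.7% and 1.87% of all genes. The median of the list was 0.07. Hopx, a small homeodomain protein, rose by log2 1.49 ± 0.16 and the IL-12 receptor chain Il12rb1 by 1.24 ± 0.21. Eomes, a T-box factor of cytotoxic and memory cells, had 0.200 and 0.171 in Treg, against 0.520 and 0.478 in CD44lo (log2 -1.43 ± 0.17, limma adjusted p = 0.00842). Tbx21 (T-bet), the lead type 1 factor, differed by -0.35 ± 0.38, and Ccl5 by -1.91 ± 0.42 (limma adjusted p = 0.0536).

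Of 10 type 2 helper genes 2 were higher and 1 lower, beside 3.7% and 1.87% of all genes. Il17rb, a receptor for IL-25, rose by log2 1.85 ± 0.20 and the chemokine receptor Ccr4 by 1.06 ± 0.19, while Il4 fell. Il13 differed by -0.36 ± 0.20. Of 11 type 17 helper genes 2 were higher and none lower (median 1.13). Ccr6, a receptor for Ccl20, had 11.4 and 11.8 in Treg, against 1.90 and 1.99 in CD44lo (log2 2.57 ± 0.30, limma adjusted p = 0.00757), with CD44hi near Treg at 8.08 and 14.0. Ahr, a ligand-activated transcription factor, rose by log2 1.13 ± 0.16.

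Of 16 follicular helper genes 1 was higher and 1 lower, beside 3.7% and 1.87% of all genes, and the number called lower was 4 with the replicate block and 3 with the other background correction. Cd200, an inhibitory ligand, rose by log2 1.00 ± 0.15 and Pou2af1, a B and T cell coactivator, had 1.19 and 1.46 in Treg, against 4.69 and 7.07 in CD44lo (log2 -2.13 ± 0.37, limma adjusted p = 0.0245). Differences were below 0 for 13 of the 16 (median -0.39). Cxcr5, the receptor for the follicle chemokine, had 13.9 and 12.5 in Treg, against 12.5 and 21.0 in CD44lo, and overlapped. Bcl6, the lead factor of these cells, differed by -0.56 ± 0.40 and Pdcd1 (PD-1) by -0.35 ± 0.33. CD44lo 2 was above CD44lo 1 for Cxcr5, Bcl6 and Pdcd1.

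Chemokine receptors had 7 of 17 higher and 1 lower (median 0.22), beside 3.7% and 1.87% of all genes. Ccr2, a receptor for inflammatory monocyte chemokines, had 1.15 and 1.19 in Treg, against 0.197 and 0.225 in CD44lo (log2 2.48 ± 0.14, limma adjusted p = 0.000943). Ccr3 rose by log2 1.76 ± 0.19 and the gut-homing receptor Ccr9 by 1.43 ± 0.21. Ccr10, a skin and mucosal receptor, was at least 1.49-fold higher. It was low in Treg, at 0.0177 and 0.0156, against 0.218 and 0.212 in CD44hi. Its call was lost in 2 of 10 other settings that tested it. With Ccr4, Ccr6 and Ccr8 above, Ccr2, Ccr3, Ccr9 and Ccr10 are the 7 that rose. Cx3cr1, the fractalkine receptor, fell by 2.04 on the log2 scale (limma adjusted p = 0.0467), a call lost in 8 of 10 other settings that tested it. The number of receptors called higher was 3 without CD44lo 1 or without Treg 2, and 4 without Treg 1 or without CD44lo 2.

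Of 21 integrin and adhesion genes 1 was higher, Itgae, and 1 lower, the beta 3 integrin Itgb3, beside 3.7% and 1.87% of all genes. Itgb3 had 7.27 and 5.85 in Treg, against 15.1 and 13.7 in CD44lo (log2 -1.14 ± 0.18, limma adjusted p = 0.0188). Itgal, Itgb2 and Itgb7 differed by 0.06, -0.09 and -0.14. Among S100, annexin and galectin genes of memory cells 3 of 17 were higher (Anxa1, Lgals3 and Capg) and none lower. Lgals3, galectin-3, rose by log2 2.07 ± 0.23 and the actin-capping gene Capg by 1.64 ± 0.30. Both were called in Treg against CD44lo with CD44hi at 2.71 and 3.46 for Lgals3, above Treg at 0.764 and 0.784.

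Killer cell receptors and cytotoxic genes split, with 5 of 17 higher and 4 lower, beside 3.7% and 1.87% of all genes. Fewer were called each way without any 1 of the 4 arrays. The filter on all 8 arrays tested none of the 5 higher genes, since each was not well above background on 1 or more arrays. Besides Gzmb and Klrg1, the rises were in the lectin-like receptors Klra7 (at least 2.23-fold), Klrb1b (at least 1.16-fold) and Klrc1 (log2 3.12 ± 0.39). These receptors belong to families of near-identical genes, so their probes may cross-react, and all 3 were at or near background in CD44lo. Klrd1 (CD94), the partner chain of Klrc1, went the other way, with 0.166 and 0.119 in Treg, against 2.84 and 1.86 in CD44lo (16.4-fold, log2 -4.03 ± 0.30, limma adjusted p = 0.00168). Gzmk, granzyme K, had 0.0212 and 0.0301 in Treg, against 0.284 and 0.360 in CD44lo (log2 -3.66 ± 0.49). Naive cells had the highest Klrd1, at 6.07 and 7.61, but the lowest Gzmk, at 0.00285 and 0.00863. Klrb1c (NK1.1) fell by 1.25 on the log2 scale, and Prf1 above was the fourth that fell.

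Cell division genes were higher in Treg in 21 of 30, with none lower, and all 30 differences were above 0 (median 2.21), beside 3.7% of all genes called higher. Before S phase, cells license origins with the Mcm helicase; cyclins and the kinase Cdk1 then drive mitosis, which Aurkb, Bub1 and Kif11 carry through at the spindle. Mki67, which marks cycling cells, had 7.88 and 12.2 in Treg, against 1.35 and 2.47 in CD44lo (log2 2.42 ± 0.41, limma adjusted p = 0.0217). Aurkb, the Aurora B kinase, had 0.292 and 0.582 in Treg, against 0.0296 and 0.0543 in CD44lo (log2 3.36 ± 0.57, limma adjusted p = 0.0221). Ccna2 (cyclin A2), Bub1, a spindle checkpoint kinase, and Birc5 (survivin) rose by log2 3.32 ± 0.54, 3.32 ± 0.61 and 2.97 ± 0.44. In each of these 5 genes, picked among those called, both Treg arrays lay above both CD44lo arrays (64.2% of all genes tested do not overlap).

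The 9 division genes that were not called act mostly in DNA replication. None of the 6 Mcm2 to Mcm7 helicase genes was called, with differences between 0.15 (Mcm2) and 0.86 (Mcm3 and Mcm5), and neither was Pcna, the polymerase clamp, at 0.39 ± 0.22. Among nucleotide synthesis genes Rrm2, Tk1 and Tyms rose by log2 2.54, 2.18 and 1.68, and Rrm1 was not called at 0.93 ± 0.25. Cdc6, which loads the helicase, rose by log2 2.91 ± 0.45. Whether the mitotic and the licensing genes differed in size of change was not tested.

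Sample 2 was above sample 1 in all 30 division genes in Treg and in 29 of 30 in CD44lo, and also in 30 in CD44hi and 24 in naive. The summed scaled signal of the 30 genes was 158.9 and 220.0 in Treg, against 97.9 and 108.9 in CD44lo. The median difference was 1.59 on slide 1, which pairs Treg 1 with CD44lo 2, and 2.70 on slide 2. Leaving out CD44lo 1 or Treg 2 left 0 of the 30 called by limma (23 at an unadjusted p under 0.05 in each), with 11 called without CD44lo 2 and 13 without Treg 1. The 4 arrays alone gave 13, a slide term 17 and no filter on dim probes 3, while the replicate block gave 23 and the authors' deposited table, the other background correction and an intensity trend 24 each.

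Division genes were also high in CD44hi cells. CD44hi exceeded CD44lo in 24 of 30 by the same test (median 2.98), beside 6.06% of all genes called higher there. Between Treg and CD44hi limma called none of the 30 (median -0.75), beside 8.19% of all genes called, although 9 had an unadjusted p under 0.05. Mki67 was 18 and 22.8 in CD44hi. These comparisons share the Treg or the CD44lo arrays with the one above.

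**Figure D5:**
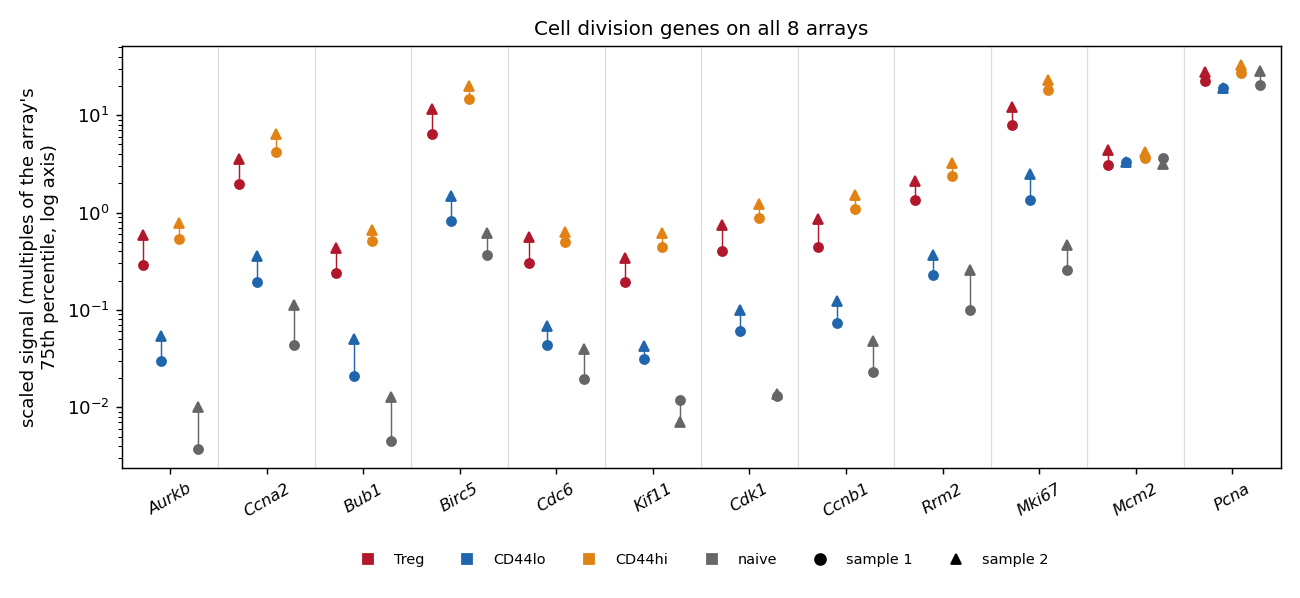
Scaled signal (multiples of the 75th percentile of the array, log axis) of 12 cell division genes on all 8 arrays, with Treg in red, CD44lo in blue, CD44hi in orange and naive in grey, circles for sample 1 and triangles for sample 2. Mki67 is at 7.88 and 12.2 in Treg, against 1.35 and 2.47 in CD44lo, the triangle lies above the circle in most groups, and the groups lie close together for Mcm2 and Pcna.

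Promoters of cell division genes often hold a CCAAT box, a binding site of the factor NF-Y. The 5 letters CCAAT were searched on either strand, on the other strand as ATTGG, in the 250 bases before the first start listed for a gene by RefSeq on GRCm38.p6. Of 26 division genes with a promoter in the table, 21 held it (80.8%), against 4013 of 11132 genes tested (36.0%). It was present in 14 of 18 that were called and in 7 of 8 that were not. A match describes the sequence and no binding was measured. The promoters of Bub1, Kif11 and Cdk1, all called higher, are shown as examples with the matches in capitals. They lie at chr2:127831860-127832109 on the minus strand for Bub1, at chr19:37376132-37376381 for Kif11 and at chr10:69352913-69353162 on the minus strand for Cdk1, with 2, 1 and 3 matches.
Bub1: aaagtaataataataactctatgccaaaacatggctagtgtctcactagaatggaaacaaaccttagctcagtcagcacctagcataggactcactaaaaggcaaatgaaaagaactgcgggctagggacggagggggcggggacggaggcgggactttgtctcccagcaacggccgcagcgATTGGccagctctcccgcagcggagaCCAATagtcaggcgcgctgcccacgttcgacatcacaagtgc
Kif11: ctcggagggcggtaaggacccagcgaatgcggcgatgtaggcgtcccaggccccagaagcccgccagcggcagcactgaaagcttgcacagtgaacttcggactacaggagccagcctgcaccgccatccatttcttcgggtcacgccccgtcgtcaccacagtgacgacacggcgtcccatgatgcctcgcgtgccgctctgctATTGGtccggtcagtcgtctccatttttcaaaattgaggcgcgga
Cdk1: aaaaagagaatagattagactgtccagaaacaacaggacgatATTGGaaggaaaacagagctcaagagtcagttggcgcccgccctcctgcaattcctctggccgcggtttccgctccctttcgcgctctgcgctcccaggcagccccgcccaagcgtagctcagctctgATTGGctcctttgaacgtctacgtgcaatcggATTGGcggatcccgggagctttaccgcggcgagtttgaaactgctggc

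Several lists held few called genes in the fit over all 8 arrays, beside 3.7% of all genes called higher and 1.87% lower. Of 24 T cell receptor signalling genes 1 was lower and none higher, and 20 of the 24 differences were below 0 (median -0.34), as were 10616 of the 17996 genes tested. The number called lower was 5 without either naive array, 4 in the 4 arrays alone and 0 without any 1 of the Treg, CD44lo or CD44hi arrays. Of 23 early activation genes Dusp4, a phosphatase of MAP kinases, rose by log2 2.28 ± 0.29 and Fosl2 fell by 1.17, while Fos, Jun and Egr1 differed by -0.17, -0.09 and -0.46. Of 8 regulators of G protein signalling, Rgs1 had 27.0 and 26.6 in Treg, against 5.87 and 6.81 in CD44lo (log2 2.08 ± 0.30, limma adjusted p = 0.0135), and Rgs11 fell by 1.65 on the log2 scale.

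Costimulatory receptors and ligands had 1 of 18 lower, Cd40lg, and none higher, but 3 were called higher without either naive array, in the 4 arrays alone and on the authors' deposited table. Inhibitory receptors had 3 of 12 higher (Havcr2, Ctla4 and Cd200) and 1 lower, the collagen receptor Lair1, by 1.19 on the log2 scale. Interferon-inducible genes had 2 of 25 higher, the GTPases Gbp2b and Gbp3, and 1 lower, the RNA sensor Oas2, beside 3.7% and 1.87% of all genes. The number called higher was 6 without either naive array and 5 with the other background correction, on the authors' deposited table or with an intensity trend. Gbp3 had 15.6 and 15.3 in Treg, against 3.40 and 4.04 in CD44lo, and Oas2 0.269 and 0.183 in Treg, against 1.09 and 0.822 in CD44lo. The median of that list was 0.01, and Ifit3, Isg15 and Irf9 differed by 0.01, -0.05 and 0.08.

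In glycolysis 2 of 15 genes were higher, beside 3.7% of all genes. The hexokinase Hk2 rose by log2 2.58 ± 0.39 and the glucose transporter Slc2a3 by 0.87 ± 0.14. There was 1 further, undetected probe of Slc2a3 going the other way. Of 12 Bcl2 family genes Bcl2l1 rose, and of 12 heat shock genes Hspb1 rose by log2 1.38 ± 0.24. Limma called none of 21 cholesterol and fatty acid genes and none of 7 Gimap GTPases, lymphocyte survival factors, and in both lists 0 had an unadjusted p under 0.05. Their medians were -0.01 and 0.10.

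Markers of other cells also differed. Of 13 tested B cell markers 6 were higher in Treg and none lower (median 1.56), beside 3.7% of all genes called higher. Differences were above 0 for 8 of the 13 and below 0 for 5. The summed scaled signal of the 13 was 14.05 and 9.986 in Treg, against 2.571 and 3.664 in CD44lo. CD44hi had 13.96 and 9.014 and naive 2.774 and 5.592. Jchain, which joins secreted antibody units, had 6.61 and 2.55 in Treg, against 0.196 and 0.175 in CD44lo (log2 4.47 ± 0.59, limma adjusted p = 0.0108). Cd79b, a chain of the B cell receptor, had 3.82 and 3.53 in Treg, against 0.809 and 1.04 in CD44lo (log2 2.00 ± 0.33).

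The called markers also included Cd74, Ms4a1, Blnk and H2-Aa, by log2 1.76, 2.62, 2.55 and 1.63. The call was lost in 5 of 10 other settings for Ms4a1 and in 5 of 11 for H2-Aa, and the list had 3 calls with the other background correction and 1 with no filter on dim probes. The defining marker Cd79a was not called and differed by log2 -0.42. Pax5, the B cell lineage factor, was not well above background on either Treg array and differed by -2.71 ± 0.64 (limma adjusted p = 0.0651). Without CD44lo 1 limma called none of the 13 markers (9 at an unadjusted p under 0.05), and without Treg 1 or without CD44lo 2 it called 1. The part of these cells in the differences above was not tested.

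Immunoglobulin genes were picked by symbol after their values had been seen and so not tested as a list. Of the 17 genes, 8 were called higher and none lower (median 2.45), beside 3.7% of all genes called higher. Their summed signal was 128.8 and 113.9 in Treg, against 57.21 and 77.9 in CD44lo, and 6 of the 17 were below background on both CD44lo arrays. Light chain segments are near copies of each other, so a probe's segment is uncertain. Iglv1 had 13 and 2.42 in Treg, against 0.261 and 0.289 in CD44lo, and Treg 1 was the higher array for it, as for Jchain.

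Of 9 markers of CD8 T and NK cells 4 were lower in Treg (Klrd1, Klrb1c, Eomes and Fcgr3) and none higher, beside 1.87% of all genes called lower. Differences were above 0 for 5 of the 9. The summed signal of the 9 was 6.307 and 5.876 in Treg, against 9.043 and 7.924 in CD44lo. Cd8b1 made up most of that sum, with 5.60 and 5.28 in Treg, against 5.14 and 4.93 in CD44lo (log2 0.11 ± 0.22), while Cd8a was below background in CD44lo. Klrk1 was not above background in either group. Among 13 myeloid and dendritic markers Fcgr3, an Fc receptor, fell by 2.61 on the log2 scale and none rose, with sums of 2.232 and 1.588 in Treg, against 1.306 and 1.494 in CD44lo. The 6 erythroid and platelet markers summed to 0.5231 and 0.2295 in Treg, against 0.6401 and 0.2696 in CD44lo, and the 2 gamma-delta and NKT markers to 12.11 and 12.47 in Treg, against 11.75 and 12.5 in CD44lo. Limma called none of these 8, and 0 had an unadjusted p under 0.05.

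The defining markers of the labelled cell type were present on all 4 arrays. The 9 T cell markers, among them the Cd3 chains, Thy1 and Lck, summed to 410.4 and 369.9 in Treg, against 462.5 and 457.4 in CD44lo. Limma called none of them over all 8 arrays, and 1 had an unadjusted p under 0.05. In the 4 arrays alone 1 was called lower. All 9 differences were below 0, as were 10616 of the 17996 genes tested, and the median of the 9 was -0.29. Cd3d had 78.2 and 64.4 in Treg, against 82.6 and 83.7 in CD44lo.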

How the data were processed

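RNA of 8 sorted samples was amplified, labelled with Cy3 and hybridized to 1 Agilent array each. Per the file headers, the authors' images were read with Agilent Feature Extraction 9.5.1.1. The deposited array files hold each spot's signal as an intensity, background-subtracted and detrended within the array, and flags of unit other. The authors' deposited value table is on a log2 scale, with column medians between 6.86 and 6.88. Its 8 columns have nearly equal quantiles, and the submitters' processing notes name limma only.

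Control spots and, where a probe had others, outlier spots were left out, and spots of a probe were averaged on the log2 scale. Of 41174 probes, 22951 were named by accession, 6659 by symbol and 3109 by older symbol through RefSeq, and 8455 kept the file's name. The brightest probe stood for each of 27670 names. The log2 signal minus the 75th percentile of the array was tested in the 17996 genes detected (well above background by the file's flag) on both arrays in 1 or more of the 4 groups. Limma 3.58.1 in R 4.3.3 (lmFit, eBayes) fitted all 8 arrays with no block (4 residual and 2.62 prior degrees of freedom), 2-sided. The fit was checked on simulated data with independent noise of equal spread in all groups, which the real arrays need not have.

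Named genes were 15 chosen by name, the 12 largest rises and falls measured on all 4 arrays, the 6 largest bounds each way, up to 4 called members each way of each list, and called markers. Other list members are given as examples, and a few genes that the rule names are not reported here. The members, the 32 lists and the rule were chosen with earlier results of these data known. Lists are described by counts and medians, with no test of the list. Alternatives were another background correction, quantile normalization, the authors' table, other filters, fewer arrays, slide and replicate blocks, all probes, an intensity trend and leaving out arrays. Promoters are from RefSeq, 26 of 30 division genes having one.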

Additional observations from a re-analysis of the deposited data

How the results depend on the processing

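The 1001 calls (665 higher, 336 lower) were 382 (250 and 132) without the filter on dim probes and 1641 (961 and 680) in the 6 arrays without naive. Leaving out 1 array at a time gave 188 to 1641 calls, 106 to 961 higher and 82 to 680 lower, with 188 without CD44lo 1, 232 without Treg 2, 390 without Treg 1 and 457 without CD44lo 2. In the other settings the count lay between 783 with the slide as a term and 1398 on the authors' table, and the balance was 781 higher and 472 lower in the 4 arrays alone and 492 and 349 with the filter on all 8 arrays. The cause was not tested, except that leaving out a Treg or CD44lo array leaves that group with 1 sample, assumed to vary like the others. In no setting was a called gene called with the other sign. The median difference over all genes tested lay between -0.10 and -0.03 in every setting.

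Of 102 named genes that were called, 58 kept the call without the dim filter, 39 without CD44lo 1 and 44 without Treg 2, and all 102 with an intensity trend. Without CD44lo 1 the sign of Il10 turned to -0.239 and that of Cd69 to 0.105, and without Treg 2 that of Cd69 to 0.089, none of them called. Over the 8 left-out arrays Cd69 lay between -0.714 and 0.105 and Il10 between -0.239 and 0.862. The labels do not say that sample numbers pair the samples. Deviations of same-numbered Treg and CD44lo samples had r = 0.26 across genes, and of the other pairs 0.06 to 0.33. The replicate block gave 1382 calls (960 and 422) and lost none of the 102. For these groups the slide term is the same split with the numbers crossed. Scan time coincided with the slide, so no separate scan term was run. Signal over background limits the genes given as bounds.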
